A study of Mus musculus with 8 samples.

Results

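The genes of the cytosolic ribosomal proteins were followed in spleen neutrophils of 4 WT and 4 Cxcr2-/- mice. They were chosen by name: a protein-coding biotype in the GENCODE M21 annotation and a symbol made of Rpl or Rps followed by a digit, by a, or by p and a digit, without the Rps6k kinases. The rule took 92 of the 55414 genes counted: 46 genes of the large subunit, 31 of the small subunit, 8 paralogs whose symbol ends in l, l1 or rt, 6 coding genes whose symbol carries -ps, and Rps19bp1, whose product binds a ribosomal protein. Both genotypes were on the FVB background, aged 10 weeks and housed free of specific and opportunistic pathogens. The Cxcr2-/- mice carried a germline deletion of the chemokine receptor Cxcr2 that had been backcrossed to FVB, and neither group received any treatment. Cells were enriched on CD11b and sorted as CD45+ CD11b+ Ly6G+ and negative for the macrophage marker F4/80. Each mouse gave 1 RNAseq library, made from total RNA after removal of ribosomal RNA, so the libraries hold unspliced and non-polyadenylated RNA too. As the deletion is present in all cells of the mouse, an effect of the receptor inside the neutrophil and an effect of its loss elsewhere cannot be told apart.

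The ribosome has a small subunit, which reads the mRNA, and a large subunit, which joins amino acids and lets the new chain out through a tunnel. Each ribosomal protein is normally present as a single copy per ribosome, apart from the acidic stalk proteins, and most of their mRNAs start with a run of pyrimidines, the TOP motif, through which mTORC1 and Larp1 control their translation. Neutrophil precursors in the bone marrow are dividing cells that make large amounts of granule protein, whereas mature neutrophils divide no more and make little new protein. These genes have also left many processed pseudogenes in the mouse genome, whose sequence is often close to that of the mRNA.

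The counts on genes ranged from 34220182 to 46233555 in WT and from 37549648 to 43789253 in Cxcr2-/- libraries. The targeted gene Cxcr2 had 2252, 1719, 1939.7 and 1913 CPM (counts scaled to the library's total with TMM factors) in WT replicates 1 to 4 and 20.7, 18.98, 15.6 and 12.9 in Cxcr2-/- replicates 1 to 4, as their labels have it. Ly6g, the sort marker, was present in every library and rose in Cxcr2-/- (log2 fold change 1.26, SE 0.14, adjusted p = 1.5e-05, quasi-likelihood test of edgeR, p adjusted by Benjamini-Hochberg over 16778 genes, as for all genes below). Of the other markers followed, those of B cells had a summed level of 232 to 551 CPM in WT and 99.996 to 258 in Cxcr2-/-, with 12 of 15 lower, those of dendritic cells 488 to 726 CPM and 115 to 168 CPM, with 3 of 6 lower, while all 8 markers of neutrophil precursors were higher. Of 12 neutrophil markers 10 were higher and 2 lower (Cxcr2 and Csf3r). The rest were 0 higher and 2 lower of 5 tested for T cells, 0 and 0 of 6 for NK cells, 2 and 2 of 12 for monocytes and macrophages, 3 and 2 of 5 for eosinophils and basophils, 0 and 0 of 6 for erythroid cells and 0 and 1 of 2 for platelets. Bulk RNA does not tell fewer cells of a type from less RNA per cell.

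Ribosomal protein genes took a larger mean part of the counts in Cxcr2-/- neutrophils, but unevenly over the mice. The 92 genes held 0.486%, 0.418%, 0.486% and 0.395% of the counts on genes in WT replicates 1 to 4, and 0.486%, 0.477%, 0.737% and 0.711% in Cxcr2-/- replicates 1 to 4. Cxcr2-/- replicates 3 and 4 thus stood above all WT libraries, whereas replicates 1 and 2 lay at the upper end of the WT range, and the groups overlapped. This overlap depends on the scaling. In TMM-scaled CPM, as used for the single genes, the 92 genes summed to 3885.4 to 4889.2 in WT and 4954.8 to 7483.6 in Cxcr2-/-, without overlap. The group means were 0.446% ± 0.0468 (SD, n = 4) in WT and 0.603% ± 0.140 (SD, n = 4) in Cxcr2-/-. The 95% Wilson interval of a single share was at most 0.00265 percentage points to either side, which covers counting error only. Both subunits moved together, as the ratio of large to small subunit counts was 0.942 to 1.01 in WT and 0.948 to 0.988 in Cxcr2-/-. The same replicates 3 and 4 also had the highest levels of Mpo and Elane, 2 granule genes of promyelocytes. These 2 do not stand for the whole list of 8 neutrophil precursor markers. The summed level of that list was 1070.5, 1103.6, 1170 and 1286.9 CPM in Cxcr2-/- replicates 1 to 4, a smaller spread. Mpo, the myeloperoxidase of azurophil granules, had 1.503, 2.35, 6.25 and 1.13 CPM in WT and 19.1, 20.2, 81.2 and 146 CPM in Cxcr2-/-, and Elane, the neutrophil elastase, 1.30, 1.19, 2.11 and 0.289 and 12.03, 14.5, 55.5 and 93.2 CPM. The proliferation gene Mki67 was not highest in these replicates, with 545, 599.6, 572 and 557 CPM in Cxcr2-/- against 185, 229, 232 and 209.8 CPM in WT. The summed level of erythroid markers was 2.92 to 6.76 CPM in WT and 3.59, 3.32, 13.7 and 14.4 CPM in Cxcr2-/-, so that it too was highest in replicates 3 and 4. That of eosinophil and basophil markers was not, with 48.8 to 69.5 CPM in WT and 38.2 to 64.6 CPM in Cxcr2-/-. Their part in the result was not tested.

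**Figure D1:**
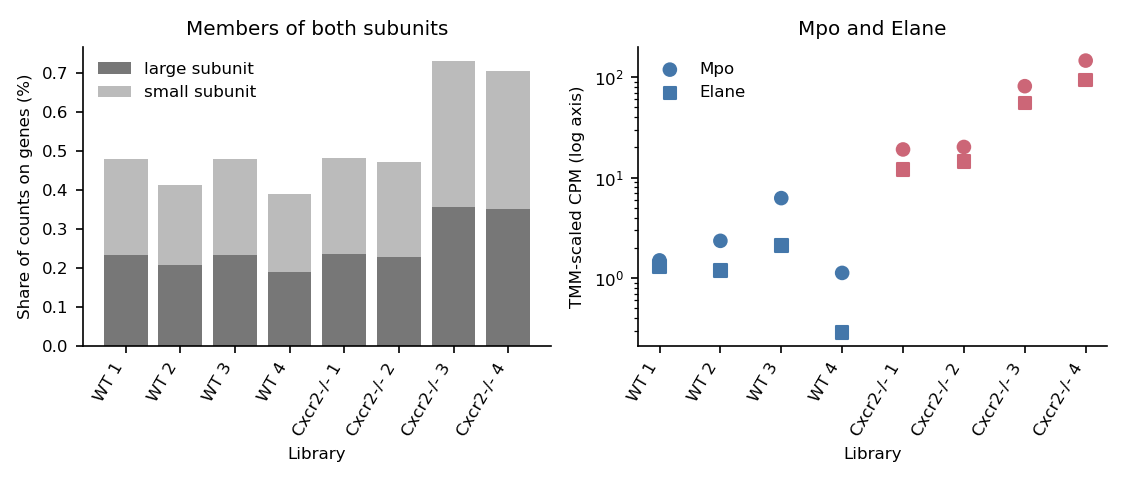
Left, share of the counts on genes (%) held by large and small subunit genes in each of the 8 libraries, as stacked bars. Right, TMM-scaled CPM of Mpo (circles) and Elane (squares) in the same libraries on a log axis, WT in blue and Cxcr2-/- in red. Cxcr2-/- replicates 3 and 4 have the highest values in both panels.

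Among the single genes, 84 of the 92 passed the filter on low counts and were tested. Of these, 54 were higher in Cxcr2-/- neutrophils, against 23.7% of all genes tested, and 1 was lower, Rpl22l1, against 21.0%. With a change of at least 1.5-fold as a further limit, 37 were higher and 1 lower, where 15.7% of all genes passed as higher and 15.7% as lower. The median log2 fold change of the 84 genes was 0.52, while that of all genes tested was 0.01. In 38 of the 84 every Cxcr2-/- library lay above every WT library (22.5% of all genes), and with Rpl22l1 the groups did not overlap for 39 (41.6% of all genes in either direction). The large subunit had 31 of 46 genes higher (median log2 fold change 0.55, from -0.47 to 1.28) and the small subunit 22 of 31 (median 0.66, from -0.22 to 1.40). No gene of the 77 in the subunits was lower past the threshold. With upper-quartile scaling, which moved the median of all genes to -0.11, 39 were higher and 2 lower, and over all genes 3076 were higher and 4391 lower in place of 3969 and 3526. The 8 genes that were not tested were Rpl10l, Rpl39l, Rps27rt, Rpl10-ps3, Rpl36-ps4, Rpl36a-ps1, Rpl9-ps1 and Rpl9-ps6.

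Part of this count rested on the libraries with the highest shares. Without Cxcr2-/- replicates 3 and 4, an alternative chosen after the data were seen, 30 genes were higher, all of them among the 54, against 20.1% of all genes, and 5 were lower (Rpl22l1, Rpl30, Rpl3l, Rpl9-ps1 and Rps27), against 20.4%. The median then fell to 0.23. When single libraries were left out, 39 and 40 genes were higher without Cxcr2-/- replicates 3 and 4 in turn. Without WT replicate 2 or WT replicate 4, the WT libraries with the lowest shares, it was 41. It was 55 and 47 without WT replicates 1 and 3, and 64 and 65 without Cxcr2-/- replicates 1 and 2. The median log2 fold change was 0.37 and 0.45 without Cxcr2-/- replicates 3 and 4 in turn. Without WT replicates 2 and 4 in turn the median was 0.48 and 0.49. Of the 54 calls, 15 were lost at least once. Rpl5 and Rps6 were among those lost without WT replicate 2 and also without WT replicate 4. All 15 were lost without Cxcr2-/- replicate 3, with adjusted p from 0.0547 to 0.150, among them Rpl5, Rpl8, Rpl12, Rpl14, Rpl21, Rpl23, Rpl27, Rpl29, Rpl35a, Rplp2, Rps6, Rps16, Rps23 and Rps25. The other 39 passed without any single library, and 29 of the 54 passed in all 21 alternatives tried. The summed level of the T cell markers overlapped between the groups (116 to 136 CPM in WT, 101 to 152 CPM in Cxcr2-/-). The joint log2 mean of the B and T cell markers was lower in every Cxcr2-/- library than in any WT library. A fit with this mean as a covariate therefore compares groups beyond the shared range. It gave 68 genes higher, against 12.8% of all genes, and a median of 1.14.

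**Figure D2:**
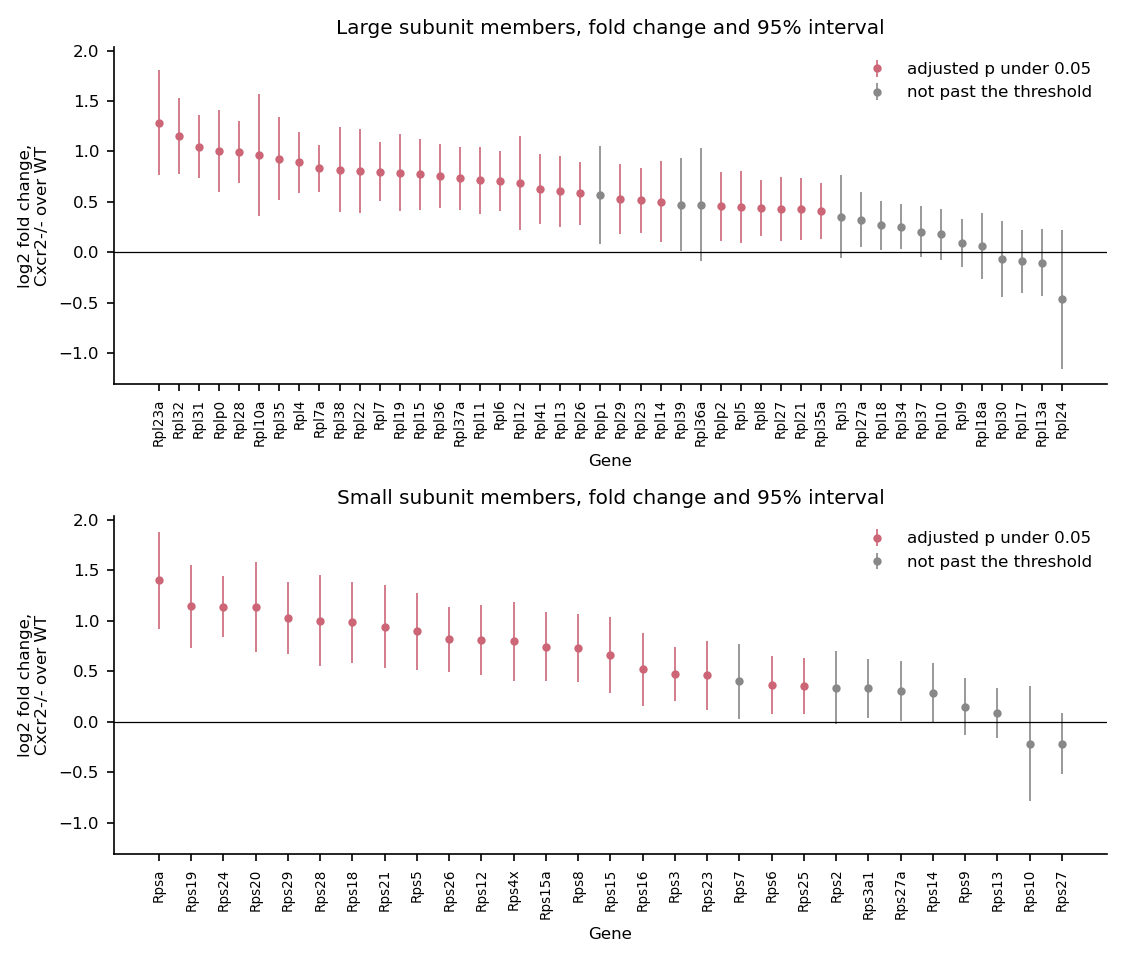
log2 fold change of Cxcr2-/- over WT with its 95% interval for the 46 large subunit genes (top) and 29 of the 31 small subunit genes (bottom), in order of size, red for adjusted p under 0.05 and grey for the rest. Most genes lie above 0, Rpsa is highest at 1.40 and Rpl24 lowest at -0.47.

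In the small subunit the largest change was that of Rpsa, a protein of the subunit's head region that is also known as the laminin receptor (chr9:120127689-120132369, plus strand, GRCm38). It had 99.2, 78.5, 93.4 and 61.9 CPM in WT and 157, 153, 284 and 288 CPM in Cxcr2-/- (log2 fold change 1.40, SE 0.22, adjusted p = 2.6e-04). The groups did not overlap, and without replicates 3 and 4 the log2 fold change was 0.88. Rps19 and Rps24 were also among the largest changes, and both are needed for maturation of the small subunit and are mutated in Diamond-Blackfan anaemia. Rps24 had 62.4, 51.9, 65.6 and 51.98 CPM in WT and 112, 104, 161 and 135 CPM in Cxcr2-/- (log2 fold change 1.14, SE 0.14, adjusted p = 3.5e-05), and Rps19, the gene most often mutated in that disease, 22.8, 19.7, 23.3 and 16.7 and 37.1, 31.7, 61.5 and 51.7 CPM (log2 fold change 1.14, SE 0.19, adjusted p = 3.4e-04). For both genes too every Cxcr2-/- library was above every WT library, with replicates 1 and 2 well clear of the WT range. Without replicates 3 and 4 their log2 fold changes were 0.72 for Rps19 and 0.88 for Rps24, both past the threshold.

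Of the 16 Diamond-Blackfan anaemia genes followed, 13 were higher and none was lower (median log2 fold change 0.74). Of all genes tested 23.7% were higher and 21.0% lower. Of the 77 subunit genes, which include these 16, 68.8% were higher, and a difference from them was not tested. Rps29 rose from 82.1, 55.8, 74.6 and 69.9 CPM in WT to 137, 110.2, 195 and 135 CPM in Cxcr2-/-, without overlap (log2 fold change 1.03, SE 0.16, adjusted p = 2.7e-04). Rps7, Rps10 and Rps27 did not pass, with log2 fold changes of 0.40, -0.22 and -0.22. Rps27, a zinc finger protein of the small subunit, had 186, 144, 187 and 168 CPM in WT and 131, 119, 185 and 156 CPM in Cxcr2-/- (adjusted p = 0.226), so that replicates 1 and 2 lay below the WT range and replicates 3 and 4 within it. Of the 6 genes listed for the mRNA channel and the decoding site 5 were higher, where 23.7% of all genes tested were, and Rps9, which is not in that list, did not pass. Rps3, which sits at the mRNA entry, had 156, 127, 143 and 119 and 168, 162, 211 and 215 CPM (log2 fold change 0.47, SE 0.12, adjusted p = 0.00783), and Rps28 20.4, 19.7, 25.01 and 21.2 and 32.4, 30.8, 66.9 and 42.9 CPM (log2 fold change 1.003, SE 0.21, adjusted p = 0.00180). Rps15, Rps23 and Rps26 passed, their log2 fold changes being 0.66, 0.46 and 0.82, whereas Rps2 did not (0.34, adjusted p = 0.121), a gene whose annotated pseudogenes held as many counts as the gene itself. Rps6, the target of the S6 kinases downstream of mTORC1, was higher by a small margin (log2 fold change 0.36, SE 0.13, adjusted p = 0.0396), with 49.5, 41.9, 40.4 and 37.5 CPM in WT and 46.9, 45.3, 60.3 and 65.3 CPM in Cxcr2-/-. Its call was lost without any of 5 libraries (WT replicates 2, 3 and 4, Cxcr2-/- replicates 3 and 4), with adjusted p up to 0.158. Rps27a, made as a fusion with ubiquitin, did not pass (0.31, adjusted p = 0.0856). Rps13 was also low in its log2 fold change (0.09, and -0.08 without Cxcr2-/- replicates 3 and 4).

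Of 8 genes for proteins along or around the exit of the tunnel, 6 were higher: Rpl23a, Rpl31, Rpl35, Rpl4, Rpl19 and Rpl26, while Rpl39 and Rpl17 did not pass. Their share of 75% was near the 67.4% of all large subunit genes, where 23.7% of all genes tested were higher. Rpl31 (chr1:39367842-39371911, plus strand) had 23.7, 22.6, 27.2 and 22.9 CPM in WT and 41.9, 40.04, 64.6 and 52.7 CPM in Cxcr2-/- (log2 fold change 1.05, SE 0.14, adjusted p = 8.4e-05). Rpl4, whose loop reaches into the tunnel, had 96.8, 83.8, 96.6 and 69.4 and 136, 138, 188 and 181 CPM (log2 fold change 0.89, SE 0.14, adjusted p = 2.2e-04). In both genes the 4 Cxcr2-/- libraries were above the 4 WT libraries. Rpl23a, with Rpl35 a part of the site where the signal recognition particle docks, had the largest log2 fold change of the subunit (1.28, SE 0.24, adjusted p = 8.6e-04) at a low level of 3.05, 2.57, 2.99 and 2.75 CPM in WT and 6.52, 5.09, 10.9 and 5.18 CPM in Cxcr2-/-. Its pseudogenes held as many counts as the gene itself, 59.7% of its exon bases lie opposite those of Tlcd1, and with the pseudogene counts added its log2 fold change was 0.46 and did not pass (adjusted p = 0.0538). For Rpl35 66.2% of the exon bases lie opposite other genes. Rpl17, at 122, 88.5, 127 and 105 CPM in WT and 88.05, 86.7, 126 and 115 CPM in Cxcr2-/-, overlapped between the groups (log2 fold change -0.09, adjusted p = 0.645).

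The stalk of the large subunit, which recruits the elongation factors, is built on Rplp0 with the acidic proteins Rplp1 and Rplp2. Rplp0 (chr5:115559467-115563727, plus strand) had 109, 86.6, 96.02 and 73.8 CPM in WT and 146, 128, 237 and 222 CPM in Cxcr2-/- (log2 fold change 1.004, SE 0.19, adjusted p = 9.1e-04). Rplp2 was higher by 0.45 on the log2 scale (adjusted p = 0.0339, at most 0.125 with 1 library left out). Rplp1 had 55.2, 45.4, 46.2 and 37.1 CPM in WT and 50.4, 42.7, 97.8 and 82.1 CPM in Cxcr2-/- and did not pass (log2 fold change 0.57, adjusted p = 0.0543). Only replicates 3 and 4 were above the WT range for it, and without them its log2 fold change was 0.0013. Rpl5 and Rpl11 carry the 5S RNA into the ribosome and bind Mdm2 when assembly fails. Rpl11 was higher in all 4 Cxcr2-/- libraries (39.02, 29.9, 37.4 and 30 CPM in WT, 46.8, 45.2, 72.5 and 59.1 CPM in Cxcr2-/-, log2 fold change 0.71, SE 0.15, adjusted p = 0.00217). Rpl5 was higher by less (log2 fold change 0.45, SE 0.16, adjusted p = 0.0412), and this call was lost without any of WT replicates 2, 3 and 4 and Cxcr2-/- replicates 3 and 4, with adjusted p up to 0.145. Rpl32 was the second gene of the subunit by size of change (26.1, 20.4, 25.5 and 17.9 CPM in WT, 44.8, 35.8, 63.6 and 55.5 CPM in Cxcr2-/-, log2 fold change 1.15, SE 0.17, adjusted p = 1.7e-04), and none of its pseudogenes reached 98% identity. Of the 4 genes on the X chromosome Rps4x was higher (0.80, adjusted p = 0.00329), and Rpl10, Rpl36a and Rpl39 did not pass (0.18, 0.47 and 0.47, all below 0 without Cxcr2-/- replicates 3 and 4). Rpl15, Rpl27 and Rpl35a, also mutated in Diamond-Blackfan anaemia, were higher by 0.77, 0.43 and 0.41 on the log2 scale. The lowest values were those of Rpl24, Rpl13a, Rpl17 and Rpl30 (-0.47, -0.10, -0.09 and -0.07), none past the threshold. For Rpl30 the fold change was -0.47 without replicates 3 and 4 and passed there (adjusted p = 0.0244).

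The counts left out read pairs that aligned to more than 1 place, so genes with near-identical pseudogenes may be undercounted. Such pairs made up 8.23% to 11.2% of all pairs in WT and 10.4% to 13.3% in Cxcr2-/-. The undercount therefore need not be alike in the 2 groups, which was not tested. Within the M21 annotation 1152 pseudogenes matched the coding sequence of a ribosomal protein gene over at least 50% of its length with at least 90% identity, and 65 of the 92 genes had a copy with at least 98% identity. These pseudogenes held 3.83% to 6.07% as many counts as the ribosomal protein genes in WT and 3.16% to 3.83% in Cxcr2-/-. The 14 subunit genes without a near-identical copy had 10 genes higher (median log2 fold change 0.55) and the 63 with one 43 (median 0.58). With the pseudogene counts added to their genes, 46 of the 84 were higher in place of 54, and 3843 of all 16637 genes. Rpl29, whose pseudogenes held 5610 counts against 1821 of its own, went from 0.52 to -0.08 (adjusted p = 0.584). Rpl21 went from 0.43 to 0.18 and did not pass either (adjusted p = 0.308). The low level of Rpl24 (1.48, 2.15, 1.04 and 1.97 CPM in WT, 0.986, 1.60, 0.712 and 1.51 CPM in Cxcr2-/-) goes with an overlap of 47.0% of its exon bases with Gm28037 on the same strand, and that of Rps10 (1.44, 2.17, 1.18 and 1.53 and 1.72, 1.36, 1.04 and 1.34 CPM) with 20.6% shared with RPS10-NUDT3. Rpl13a, with a WT mean of 4.90 CPM, shares 35.4% of its exon bases with Gm45713, Mir5121 and Snord33 on the same strand. Pairs in such overlaps are ambiguous to the counting, so the levels of Rpl24, Rps10 and Rpl13a are uncertain.

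On the scale of CPM per kb of exon, the highest WT means of the small subunit were those of Rps9 (192), Rps27 (164) and Rps29 (102), and those of the large subunit Rplp1 (92.1), Rpl17 (83.4) and Rpl8 (62.9). Rps9, a protein at the mRNA entry site, had 572, 383, 513 and 473 CPM in WT and 573, 475, 602 and 499 CPM in Cxcr2-/- and did not differ past the threshold (log2 fold change 0.15, adjusted p = 0.388). It alone made up 10.03% to 12.3% of the subunit genes' counts in WT and 7.29% to 10.8% in Cxcr2-/-. Such levels rest on the length of all annotated exons, which can be longer than a single mRNA, and on the reads lost to copies.

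The make-up of the ribosomal protein counts also differed between the genotypes, and for several genes alike in all 4 Cxcr2-/- libraries. Here each of the 77 subunit genes is given as its share of the counts of all 77 in the same library, which needs no scaling between libraries, but in which a rise of some genes lowers the share of the others. This view was added after the data were seen and was not tested. For 25 genes (32.5% of the 77, the only genes in this comparison) the 4 Cxcr2-/- libraries were above the 4 WT libraries, and for 13 (16.9%) below. Rps27 made up 3.86, 3.78, 4.09 and 4.38% of these counts in WT and 2.47, 2.42, 2.50 and 2.27% in Cxcr2-/-. Rpl17 made up 2.54, 2.32, 2.77 and 2.73% and 1.66, 1.77, 1.71 and 1.67%, and Rpl9, named here after its values were seen, 3.96, 3.99, 4.01 and 3.97% and 3.04, 3.44, 2.56 and 2.96%. In each of the 3 genes all Cxcr2-/- libraries were below all WT libraries, and for Rps27 and Rpl17 the 4 Cxcr2-/- values lay close together. In the other direction Rps24 went from 1.30, 1.36, 1.43 and 1.35% to 2.10, 2.13, 2.17 and 1.97%, again with like values in the 4 Cxcr2-/- libraries. Rpsa, at 2.06, 2.05, 2.04 and 1.61% in WT, spread more widely in Cxcr2-/- (2.95, 3.12, 3.83 and 4.20%) and was highest in replicates 3 and 4. Counting error was at most 0.176 percentage points to either side (95% Wilson interval).

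**Figure D3:**
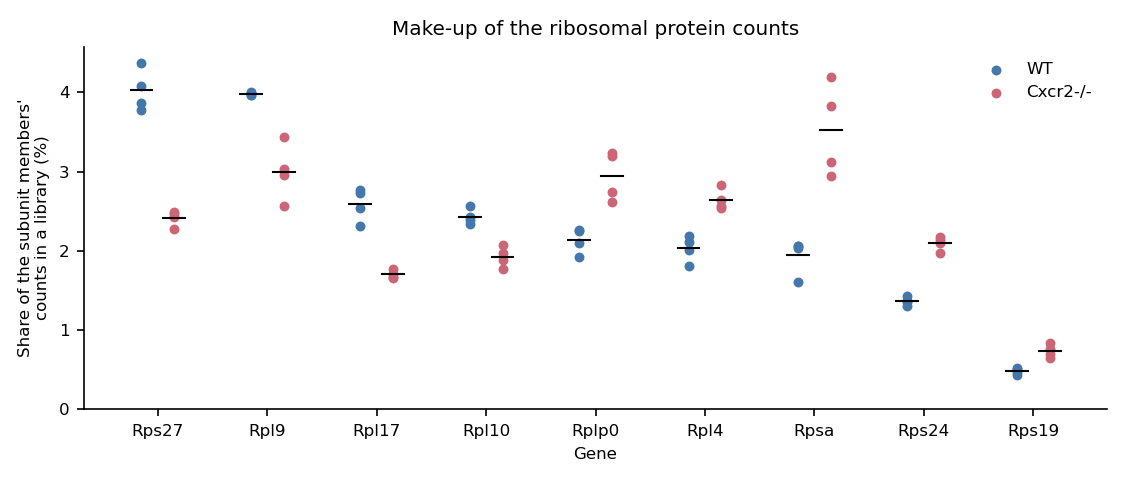
Share (%) of the summed counts of the 77 subunit genes held by 9 of them, with a point for each library (WT blue, Cxcr2-/- red) and a line at the group mean. Rps27, Rpl9, Rpl17 and Rpl10 lie lower in all Cxcr2-/- libraries and the other 5 genes higher.

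The paralogs did not move as a group. Rpl22l1 was the only gene lower past the threshold, and its parent Rpl22 was higher. Rpl22 is an RNA-binding protein of the large subunit that is dispensable for translation at large and is known to hold down the mRNA of Rpl22l1, which can take its place in the ribosome. Rpl22l1 (chr3:28805436-28807424, plus strand) had 20.7, 18.05, 17.3 and 16.3 CPM in WT and 8.97, 7.42, 8.34 and 10.2 CPM in Cxcr2-/- (log2 fold change -1.05, SE 0.13, adjusted p = 3.7e-05). Rpl22 (chr4:152325742-152334071, plus strand) had 12.2, 10.3, 10.96 and 8.85 CPM in WT and 14.1, 13.7, 25.3 and 20.9 CPM in Cxcr2-/- (log2 fold change 0.81, SE 0.19, adjusted p = 0.00425). In neither gene did the groups overlap. The counts of Rpl22l1 were 169.5, 175, 157 and 184% of those of Rpl22 in the WT libraries and 63.5, 54.2, 32.97 and 48.7% in the Cxcr2-/- libraries (not corrected for length). This ratio was above 100% in every WT library and below it in every Cxcr2-/- library. The log2 ratio differed by -1.82 (0.78 ± 0.094 in WT, -1.04 ± 0.40 in Cxcr2-/-, SD, n = 4 each, exact permutation test over the libraries, two-sided, p = 0.0286, the smallest that 4 against 4 allow, adjusted p = 0.0476 over 5 pairs). Rpl22l1 was lower past the threshold in all 21 alternatives, with a log2 fold change of -1.16 without Cxcr2-/- replicates 3 and 4. Rpl22 was higher in 20 of the 21. Without Cxcr2-/- replicates 3 and 4 its log2 fold change was 0.38 and did not pass (adjusted p = 0.0714).

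Rpl7l1, which shares its fold with Rpl7 and is known from ribosome assembly, was the only paralog that was higher (34.4, 31.3, 31.1 and 28.3 CPM in WT, 37.9, 36.97, 40.3 and 43.3 CPM in Cxcr2-/-, log2 fold change 0.34, SE 0.09, adjusted p = 0.00978). This call held in 18 of the 21 alternatives. Among those without it were upper-quartile scaling (0.22, adjusted p = 0.0724) and the fit without Cxcr2-/- replicates 3 and 4 (0.24, adjusted p = 0.118). As Rpl7 rose more (0.80), the ratio of Rpl7l1 to Rpl7 went from 31.1, 39.9, 29.8 and 33.1% to 26.3, 25.6, 21.8 and 23.3% (log2 difference -0.46, exact permutation test, p = 0.0286, adjusted p = 0.0476). Rpl3l, best known as the form of Rpl3 in striated muscle, had 6.28, 3.74, 5.61 and 5.50 CPM in WT and 3.01, 2.93, 5.06 and 3.38 CPM in Cxcr2-/- and did not pass (log2 fold change -0.55, adjusted p = 0.0597). It passed as lower without WT replicate 2 (adjusted p = 0.0220) and without Cxcr2-/- replicate 3 (adjusted p = 0.0137). Its ratio to Rpl3 was 15.5, 8.68, 14.8 and 17.1% in WT and 8.42, 8.37, 8.14 and 5.32% in Cxcr2-/-, a log2 difference of -0.87 (exact permutation test, p = 0.0286, adjusted p = 0.0476), with WT replicate 2 just above the highest Cxcr2-/- library. Rps27l, a p53 target close to Rps27, and Rpl36al, a copy of Rpl36a without introns, did not pass by level (0.39 and 0.61) or by ratio (log2 differences 0.59 and 0.27, exact permutation test, adjusted p = 0.0714 and 0.514). With 1 Cxcr2-/- library left out, the 3 ratios past the threshold lost their calls in 10 of 12 cases (adjusted p = 0.0714 in each by the exact permutation test), and that of the ratio of Rps27l to Rps27 was 0.0476 without Cxcr2-/- replicate 1. The smallest p of this test with 1 library left out is 0.0286. Whether a pair at that limit passes after adjustment depends on the other pairs, so a lost call need not mean a weaker difference. Rpl10l was at 0 counts in all 8 libraries, which allows at most 0.0877 CPM in the shallowest (3 counts). Rpl39l had at most 0.0553 CPM and Rps27rt at most 0.267 CPM. Among the genes with a -ps symbol only Rps12-ps3 was tested (log2 fold change 0.37, adjusted p = 0.426), and Rpl36-ps4 was at 0 in all libraries. Rpl10-ps3, Rpl36a-ps1, Rpl9-ps1 and Rpl9-ps6 stayed at or below 0.422 CPM. Rps19bp1, whose product binds Rps19 and is also known as a cofactor of the deacetylase Sirt1, had 2.52, 1.83, 1.79 and 3.09 and 2.38, 2.60, 2.77 and 1.92 CPM and overlapped (log2 fold change 0.07).

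**Figure D4:**
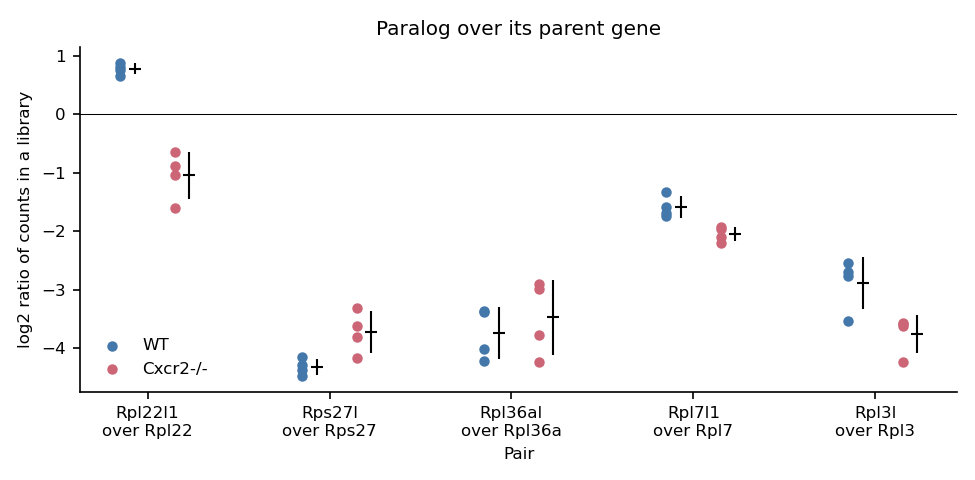
log2 ratio of the counts of a paralog to those of its parent gene for 5 pairs, not corrected for length, with a point for each library (WT blue, Cxcr2-/- red) and the mean ± SD beside the points. The ratio of Rpl22l1 to Rpl22 lies above 0 in the 4 WT libraries and below 0 in the 4 Cxcr2-/- libraries.

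As most of these genes share the TOP start, the letters around their annotated starts (RefSeq, GRCm38.p6) were set beside the fold changes. The start sequences of 3 genes with large and 3 with low fold changes are shown to let the presence or absence of the tract be seen, from 10 bases before the start to 20 after it, 5′ to 3′ on the gene's strand, with the longest run of C or T in capitals.
Rpsa, chr9:120127756-120127785, plus strand: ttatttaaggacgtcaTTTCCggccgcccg
Rpl31, chr1:39367841-39367870, plus strand: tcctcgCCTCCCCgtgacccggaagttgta
Rplp0, chr5:115559457-115559486, plus strand: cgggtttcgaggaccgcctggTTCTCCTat
Rpl24, chr16:55966265-55966294, plus strand: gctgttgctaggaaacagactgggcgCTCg
Rps27, chr3:90213629-90213658, minus strand: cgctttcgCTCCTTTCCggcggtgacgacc
Rps10, chr17:27635225-27635254, minus strand: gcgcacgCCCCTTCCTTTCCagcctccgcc
Among the 6 the run was longest in Rps10 (13 bases) and Rps27 (9), which did not pass the threshold, and it was 5 bases in Rpsa and 3 in Rpl24. Over the 57 subunit genes with an entry, 35 (61.4%) held a run of at least 6 C or T in this window, compared with 32.1% of all 27025 genes with an entry and 32.8% of those tested. The letters CTTTCC were present on either strand of the entry, from 250 bases before the start to 50 after, in 50.9% of the 57 (29.3% of all genes), CCGGAAG, a core bound by Ets factors such as Gabpa, in 42.1% (9.93%), and GCCATNTT, the core of the Yy1 site, in 19.3% (6.96%). Among the genes tested, which are the nearer comparison, the shares were higher for CCGGAAG (19.8%) and GCCATNTT (9.89%), and 30.7% for CTTTCC. Of the 35 genes with a run, 25 were higher (median log2 fold change 0.71), and of the 22 without, 15 were higher (median 0.49). The annotated start may lie away from the start in use, so a gene without a run here may still have a TOP start.

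For the lists that follow, 23.7% of all genes tested were higher and 21.0% lower. The proteins of the mitochondrial ribosome, which are made by cytosolic ribosomes and imported, were higher for 49 of 77 genes and lower for 1 (median log2 fold change 0.66), with Mrpl52 (log2 fold change 2.10, adjusted p = 0.00038) and Mrps27 (1.35, adjusted p = 0.0456) as the largest rises and Mrpl33 (-0.31, adjusted p = 0.0140) as the gene that was lower. Initiation factors were higher for 19 of 38 and lower for 5. Eif3h, a subunit of the Eif3 complex, rose from 26.4, 22.7, 26.5 and 26.5 to 49.2, 45.7, 57.8 and 53.03 CPM (log2 fold change 1.01, SE 0.10, adjusted p = 6.1e-06), and Eif2s1, the alpha subunit of Eif2 on which stress kinases act, rose by 0.96 on the log2 scale. Eif1, which guides the choice of the start codon, fell from 727, 624, 688 and 669 to 423, 407, 423 and 403 CPM (log2 fold change -0.71, SE 0.09, adjusted p = 5.3e-05), and so did Eif1a (log2 fold change -0.75). Elongation and termination factors were near or below the share of all genes, with 2 of 10 higher, Eif5a and Eef1a1 (0.82 and 0.50), and 1 lower, Etf1 (-0.39). Eef1a1, itself a TOP mRNA, had 471, 436, 439.8 and 328 CPM in WT and 472, 456, 717 and 723 CPM in Cxcr2-/-, with the same 2 libraries on top.

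Of 64 factors that assemble ribosomes, 11 were higher and 8 lower (17.2% and 12.5%, median log2 fold change 0.08), where 23.7% and 21.0% of all genes tested passed. Rrs1 and Utp6 were the largest rises (1.07 and 0.92), and Ppan and Gnl3, both nucleolar proteins, the largest falls (-1.04 and -0.84). RNA polymerase I and its factors were near the share of all genes, with 5 of 15 higher (33.3%) and 3 lower. Rrn3, which brings the polymerase to the ribosomal RNA promoter, rose by 0.71, and Polr1e by 0.59, whereas Twistnb and Polr1a, both subunits of the polymerase, had log2 fold changes of -0.85 and -0.43. Among the mTORC1 pathway and the regulators of TOP mRNAs 8 of 16 were higher and 1 lower, Rheb (-0.27). Larp1, which binds the TOP start and holds these mRNAs back when mTORC1 is off, rose from 22.99, 31.8, 21.5 and 23.9 to 46.6, 40.01, 47.6 and 46.2 CPM (log2 fold change 0.85, SE 0.12, adjusted p = 1.4e-04), and the mTOR partner Mlst8 from 32.3, 28.2, 29.4 and 29.4 to 90.3, 82.1, 57.9 and 49.5 CPM (log2 fold change 1.23, SE 0.16, adjusted p = 7.1e-05). Of 15 TOP mRNAs for other proteins 5 were higher, with Eif3h and Naca (0.67) in front. Ribosomal proteins outside the naming rule were followed too. Rack1, the scaffold on the head of the small subunit, had 64.4, 60.1, 65.1 and 45.96 CPM in WT and 87.01, 81.7, 139.7 and 142 CPM in Cxcr2-/- (log2 fold change 0.94, SE 0.18, adjusted p = 0.00127). Fau, the precursor of a small subunit protein, did not pass (-0.17, adjusted p = 0.328). These lists were described by their counts, and differences between lists were not tested.

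**Figure D5:**
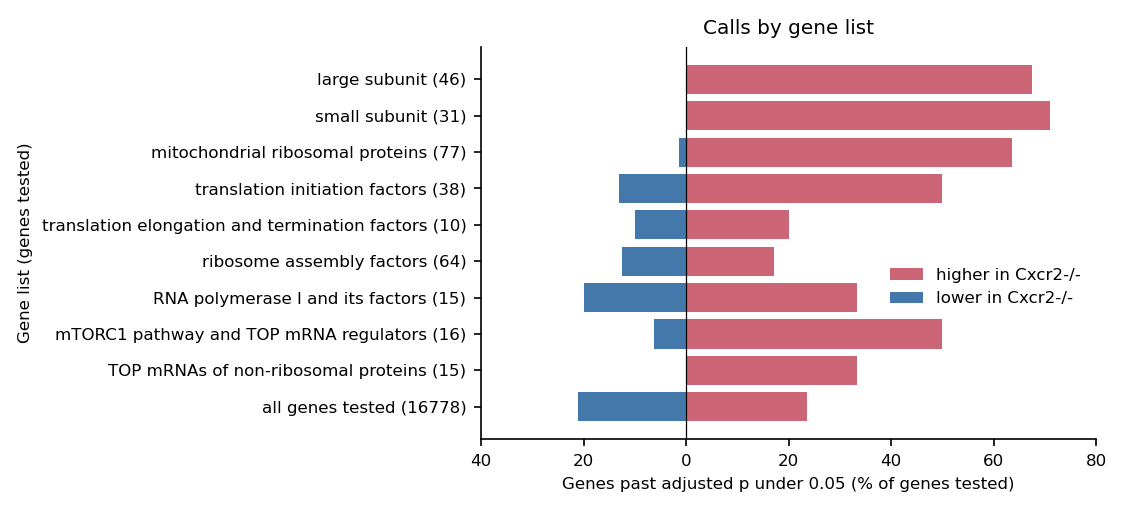
Percent of the genes tested in each list that were higher (red, right) or lower (blue, left) in Cxcr2-/- past an adjusted p of 0.05, with the number of genes tested in brackets. Both subunits and the mitochondrial ribosomal proteins have the highest shares of higher genes, and the ribosome assembly factors lie below all genes tested.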

How the data were processed

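Spleen neutrophils of 4 WT and 4 Cxcr2-/- mice were profiled by RNAseq, 1 library a mouse, with groups taken from the sample labels. The deposited values are raw counts per gene, which the authors made by trimming, alignment to mm10 with STAR and counting with HTSeq. Versions, annotation and strand setting are not given in the sources used here, and read pairs without a unique place or gene are not counted, which lowers genes with near-identical pseudogenes or overlapping genes. None of the 92 identifiers carries the version of the M21 annotation used for biotypes and coordinates, and 90 are 1 version higher. Rows without a gene were left out. Pairs assigned to no counted feature were 31.4% to 41.5% in WT and 26.7% to 31.9% in Cxcr2-/-, and those not uniquely aligned 8.23% to 11.2% and 10.4% to 13.3%. The feature counted is not given, so pairs of the first kind may lie in introns as well as between genes.

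Counts were filtered (filterByExpr), TMM-scaled and tested by edgeR's quasi-likelihood test (edgeR 4.0.16, R 4.3.3) with Benjamini-Hochberg adjustment over 16778 genes at 0.05. Paralog ratios (0.5 added to each count) used exact permutation tests, two-sided, adjusted over 5 pairs. Pseudogenes were matched with blastn 2.17.0. The named genes were the role groups, the 4 largest changes each way and the 3 highest levels per kb of each subunit, all paralogs and -ps genes, and up to 2 genes each way per pathway list, and some of these genes are not reported here. The members and lists were chosen with earlier results of these data known. On simulated counts for this comparison over 16778 genes, 90% of genes changed 2-fold and 24% of those changed 1.5-fold were recovered, with 5 false calls. Alternatives were DESeq2 1.42.0, other scalings and filters, added pseudogene counts, a B and T cell marker covariate, a length trend, a replicate block and leaving out libraries. Intervals and floors cover counting error only.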

Additional observations from a re-analysis of the deposited data

Results flagged for a closer look

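Dixon's test on 114 groups of 4 values flagged 3, and chance flags about 1 in 20 groups. For Rpl13a the highest Cxcr2-/- library, replicate 3, stood apart at 5.13 CPM, with the others at 4.30 to 4.43 CPM (gap over range 0.850). For the ratio of large to small subunit counts WT replicate 2 stood apart at 1.01, with the other WT libraries at 0.942 to 0.946 (gap over range 0.935). For the ratio of Rpl3l to Rpl3 Cxcr2-/- replicate 4 stood apart at 5.32%, with the others at 8.14% to 8.42% (gap over range 0.927 on the log2 scale).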

How the results depend on the processing

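The count of 54 higher genes was 39 to 57 under the other scalings, filters and tools, 68 with the B and T cell marker covariate (67 at 1.5-fold or more, median 1.14) and 30 without Cxcr2-/- replicates 3 and 4 (13 at 1.5-fold or more, 5 lower and 3 of them by 1.5-fold). Leaving out 1 library gave 39 to 65 higher, 1 to 2 lower, 32 to 45 and 1 to 2 at 1.5-fold, and a median of 0.37 to 0.64. Lower genes were 3 under DESeq2 and without a filter (2 by 1.5-fold), and 2 under upper-quartile scaling, total counts, a minimum of 10 counts, protein-coding genes and a length trend (2 by 1.5-fold in each), with Rpl3l added to Rpl22l1. Under the replicate block 50 were higher and 2 lower; same-number correlations were 0.11, -0.18, 0.15 and -0.25, so the libraries share only a number. Paired by number with sign flips (replicate block, exact, smallest p = 0.125), the paralog ratios -1.82, -0.46 and -0.87 had an adjusted p of 0.156. Without 1 library the ratio of Rpl22l1 to Rpl22 was -1.95 to -1.64, Rpl7l1 -0.51 to -0.37, Rpl3l -1.08 to -0.71, Rps27l 0.45 to 0.74 and Rpl36al 0.08 to 0.52. Of 1029 values of 55 single genes 19 changed sign: Rps19bp1 (-0.0509 upper quartile, -0.0173 total counts, -0.00667 protein-coding genes, -0.25 covariate, and -0.0548 to 0.24 over the fits without 1 library, below 0 without WT replicate 2 or 3 or Cxcr2-/- replicate 3), Rps13 (-0.0321 upper quartile, -0.0375 without Cxcr2-/- replicate 3, -0.0802 without 3 and 4), Rpl17, Rps27, Rpl13a and Rpl30 with the covariate (0.39, 0.21, 0.0327 and 0.35), Rpl30 without Cxcr2-/- replicate 1 (0.0935), and Rpl10, Rpl36a, Rpl39 and Rps2 without 3 and 4 (-0.0514, -0.21, -0.0605 and -0.0803). The cause was not tested. At this depth 1.5-fold changes were often missed on simulated counts.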
